A study of Mus musculus with 32 samples.

Results

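The 10 neutrophil genes described here are S100a8, S100a9, Ngp, Camp, Mmp9, Csf3r, Cxcr2, Cxcr4, Il1b and Retnlg. They were taken by symbol from a table of estimated counts with 41687 rows, and each matched 1 row by its Ensembl identifier. The table covers lungs of 12 adult mice of 8 to 18 weeks, 6 C57b/6 wild types (WT) and 6 Bmal1 knockouts (KO), bred in-house and all given as female. Bmal1, with the gene symbol Arntl, pairs with Clock to switch on genes of the daily rhythm. Whether the deletion was whole-body or limited to some cells, and the time of day of collection, are not given in the sources used here. RNA of each mouse was sequenced as RiboZero libraries, from which ribosomal RNA had been pulled down, and as PolyA libraries, selected for polyadenylated RNA. Both started from 200 ng, with n = 6 per genotype. NoSelect libraries skipped both steps, started from 15 ng in 6 preparations that were combined, and existed for mice 3 to 6 of each genotype, n = 4. That made 32 libraries.

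Neutrophils are short-lived white cells made in bone marrow, and the lung holds many of them in its small vessels. Granule proteins are made in order during marrow maturation, so Ngp and Camp transcripts belong to immature cells, whereas S100a8, S100a9, Cxcr2 and Csf3r transcripts persist in circulating cells. Neutrophils pass through a daily cycle of release and ageing in which Bmal1 is known to act within the cell, with Cxcr2 and Cxcr4 as opposed receptors of release and homing. In whole tissue, fewer cells of a type and less RNA per cell cannot be told apart.

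All 10 are protein-coding genes, and counts cover whole genes. In GENCODE M21 (GRCm38) the alarmin genes are S100a8 (ENSMUSG00000056054) at chr3:90668978-90670035 on the plus strand and S100a9 (ENSMUSG00000056071) at chr3:90692632-90695721 on the minus strand. Of the granule protein genes, Ngp and Camp lie on chromosome 9: Ngp (ENSMUSG00000032484) at chr9:110419747-110423012 on the plus strand, Camp (ENSMUSG00000038357) at chr9:109847379-109849617 on the minus strand and Mmp9 (ENSMUSG00000017737) at chr2:164940780-164955850 on the plus strand. The receptors are Csf3r (ENSMUSG00000028859) at chr4:126024550-126044440 on the plus strand, Cxcr2 (ENSMUSG00000026180) at chr1:74153989-74161246 on the plus strand and Cxcr4 (ENSMUSG00000045382) at chr1:128588199-128592293 on the minus strand. The secreted signals are Il1b (ENSMUSG00000027398) at chr2:129364570-129371139 on the minus strand and Retnlg (ENSMUSG00000022651) at chr16:48872621-48874496 on the plus strand.

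Values below are CPM (counts scaled to library size) after TMM scaling over all 32 libraries. Total counts ran from 11638594 to 25801237 in RiboZero, from 29924325 to 41548830 in PolyA and from 74979802 to 115059756 in NoSelect. Arntl averaged 30.9 ± 2.90 CPM in WT and 17.4 ± 1.31 in KO (SD, n = 6) in RiboZero. In PolyA the Arntl ranges of the genotypes overlapped, from 19.6 to 23.6 CPM in WT and from 17.0 to 20.9 in KO. Mouse KO6 went against its label of sex: its Xist was 0.0812, 0.0482 and 0.391 CPM in RiboZero, PolyA and NoSelect, against at least 250.05 in every other library, and its Ddx3y was 89.1, 41.4 and 72.5, against 0 in every other library. Arntl in KO6 was 15.2, 17.4 and 16.6 CPM in RiboZero, PolyA and NoSelect. In the other mice it ran from 16.8 to 33.9, from 17.0 to 23.6 and from 17.6 to 29.4. The NoSelect library of KO6 carries the tissue label liver, but 6 liver markers summed to 0.538 CPM there, against 0.194 to 1.47 in the other NoSelect libraries, and 6 lung markers to 22074 CPM. The values of members whose call or size turned on KO6 are therefore also given without it. KO6 was also the lowest KO library for 8 of the 10 neutrophil genes in RiboZero, so leaving it out takes away low KO values.

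The label was checked against genes that define neutrophils. Ly6g, the usual surface marker of mouse neutrophils, had at most 7 counts in any library, and Mpo and Elane, primary granule enzymes of the earliest marrow stages, at most 8 and 3. Csf3r and Cxcr2, receptors characteristic of mature neutrophils, were present in every library, with at least 195 and 45 counts. Both are among the 10 genes, so their presence is not a separate check of the label. Ly6g, from outside the 10 genes, did not back it. Of the 10 genes, Cxcr4 is also expressed by lymphocytes, macrophages and endothelium, and Il1b and Mmp9 by macrophages. Per kilobase of the longest GENCODE M21 transcript, Cxcr4 was highest in WT RiboZero libraries at 18.4 ± 3.04 CPM per kb (SD, n = 6), then S100a9 at 13.6 ± 3.02 and S100a8 at 8.36 ± 1.91. Csf3r (3.34 ± 0.830), Il1b (2.25 ± 0.673), Mmp9 (2.08 ± 0.392) and Retnlg (1.61 ± 0.323 CPM per kb) followed, with ranges that overlapped from each gene to the next. Cxcr2 (0.875 ± 0.257), Ngp (0.471 ± 0.536) and Camp (0.134 ± 0.252 CPM per kb) were lowest. In KO RiboZero libraries S100a9 stood first at 30.4 ± 19.7 CPM per kb and Retnlg at 4.92 ± 3.89.

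The 250 bases upstream of the RefSeq start are shown for 4 members that were higher in KO at an unadjusted p under 0.05 in at least 1 preparation, since Bmal1 binds DNA and the members' promoters can be read beside their levels. They lie at chr3:90668821-90669070 on the plus strand (S100a8), chr3:90695722-90695971 on the minus strand (S100a9), chr16:48872358-48872607 on the plus strand (Retnlg) and chr1:74153744-74153993 on the plus strand (Cxcr2), in GRCm38.p6. S100a8 and S100a9 are neighbours on chromosome 3. In GENCODE M21 the S100a8 and Cxcr2 genes already begin inside these windows, at 90668978 and 74153989. Sequences are from RefSeq. Sequences run 5′ to 3′ and capitals mark every match to 4 short motifs, searched on both strands: CACGTG (the E-box of Bmal1 and Clock), AGGTCA (the core of ROR and REV-ERB elements), GAGGAA (a PU.1 core) and TTNNGCAA (a C/EBP form).
S100a8: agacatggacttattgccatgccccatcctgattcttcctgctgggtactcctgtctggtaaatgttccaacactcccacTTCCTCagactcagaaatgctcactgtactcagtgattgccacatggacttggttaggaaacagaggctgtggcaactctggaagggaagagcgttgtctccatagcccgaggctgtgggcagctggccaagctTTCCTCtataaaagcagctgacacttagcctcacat
S100a9: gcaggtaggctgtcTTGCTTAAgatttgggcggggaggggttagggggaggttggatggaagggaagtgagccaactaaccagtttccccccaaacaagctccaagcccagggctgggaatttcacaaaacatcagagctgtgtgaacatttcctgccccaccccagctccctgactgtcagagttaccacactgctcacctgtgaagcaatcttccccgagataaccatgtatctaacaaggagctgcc
Retnlg: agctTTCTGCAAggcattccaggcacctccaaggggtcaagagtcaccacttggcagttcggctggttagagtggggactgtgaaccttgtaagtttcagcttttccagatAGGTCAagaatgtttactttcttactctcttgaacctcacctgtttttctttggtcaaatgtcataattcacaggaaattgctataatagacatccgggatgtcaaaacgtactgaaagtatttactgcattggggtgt
Cxcr2: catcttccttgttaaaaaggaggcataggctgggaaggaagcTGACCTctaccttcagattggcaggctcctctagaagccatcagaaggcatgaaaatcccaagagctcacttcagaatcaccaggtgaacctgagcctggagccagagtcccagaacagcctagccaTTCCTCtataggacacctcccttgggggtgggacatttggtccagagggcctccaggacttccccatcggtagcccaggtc
The upstream window of Mmp9 had no entry. CACGTG occurred in 0 of the 9 members' windows that had a RefSeq entry, and in 6.02% of 32851 windows of all genes. AGGTCA occurred in 2 of 9 (Retnlg and Cxcr2), against 14.0% of all. GAGGAA occurred in 3 of 9 (S100a8, Cxcr2 and Csf3r), against 23.3%, and TTNNGCAA in 3 of 9 (S100a9, Retnlg and Ngp), against 9.56%. A match describes letters in a window and not a bound site.

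The genotypes were set against each other separately in RiboZero, PolyA and NoSelect with edgeR (quasi-likelihood), and a call is a Benjamini-Hochberg adjusted p under 0.05 over all rows. Each comparison could test 9 of the 10 members, since Camp was below the count filter in every preparation. In RiboZero 1 of the 9 was called, Mmp9, higher in KO, beside 3.46% of all rows. In PolyA 1 of 9 was called, Retnlg, higher in KO, beside 4.03% of all rows. In NoSelect edgeR called 0 of 9, beside 2.17% of all rows, where 4 of the 9 had an unadjusted p under 0.05 and DESeq2 called 4. At an unadjusted p under 0.05, 5 of 9 members were higher in RiboZero and 5 of 9 in PolyA, and 0 were lower in any preparation, while 16.4%, 18.0% and 15.7% of all rows passed that mark in either direction in RiboZero, PolyA and NoSelect. The median log2 difference of the 9 was 0.66, 0.56 and 0.36 in RiboZero, PolyA and NoSelect, and that of all rows was 0.00 in each.

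**Figure D1:**
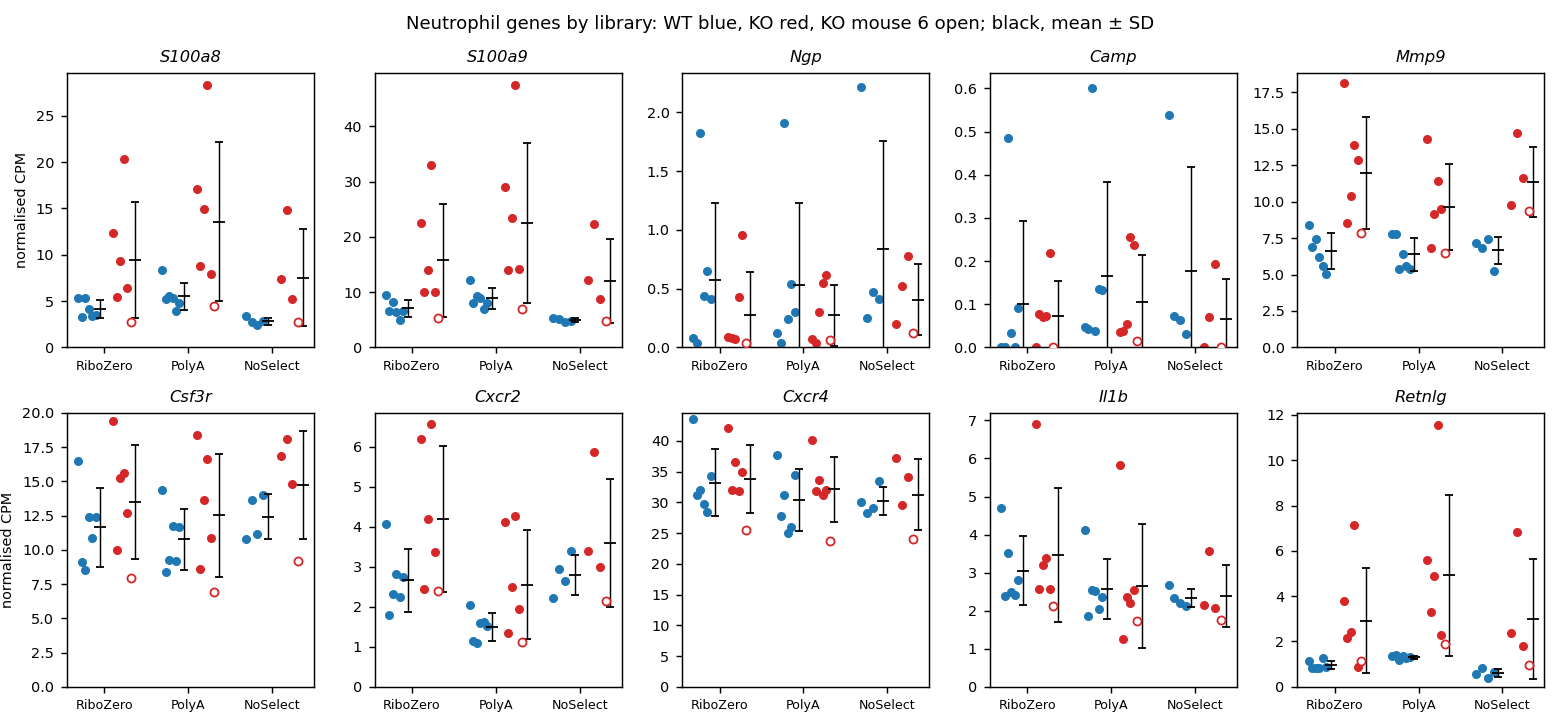
Normalised CPM of the 10 genes (vertical axes, linear from 0) in each library, by preparation and genotype; points are mice (WT blue, KO red, KO6 open), and bars give the mean ± SD, ending at the axis where the SD exceeds the mean. KO libraries of S100a8, S100a9, Mmp9 and Retnlg spread upwards from the WT range, while those of Cxcr4 lie within or near it.

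The alarmins S100a8 and S100a9 form calprotectin, an abundant protein of neutrophil cytosol that binds calcium and zinc. Their KO means were above 2-fold the WT means in all 3 preparations, with a wide spread among KO mice, and neither was called. S100a8 in RiboZero ran from 3.25 to 5.34 CPM in WT with a median of 3.86, and from 2.72 to 20.3 in KO with a median of 7.85. In PolyA it ran from 3.96 to 8.31 CPM in WT (median 5.30) and from 4.45 to 28.3 in KO (median 11.9). In NoSelect the WT mice 3 to 6 had 3.38, 2.70, 2.38 and 2.81 CPM and the KO mice 3 to 6 had 7.36, 14.8, 5.24 and 2.71. KO4 was highest and KO6 lowest in each preparation, and KO6 lay within or below the WT range. Above every WT library were 5 of 6 KO libraries in RiboZero, 4 of 6 in PolyA and 3 of 4 in NoSelect. The log2 difference of S100a8 was 1.18 (SE 0.382, edgeR adjusted p = 0.126) in RiboZero, 1.27 (SE 0.373, adjusted p = 0.0850) in PolyA and 1.41 (SE 0.452, adjusted p = 0.176) in NoSelect.

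S100a9 followed S100a8 closely. In RiboZero it ran from 5.02 to 9.53 CPM in WT (median 6.62) and from 5.24 to 33.0 in KO (median 12.01). In PolyA it ran from 6.90 to 12.2 CPM in WT (median 8.46) and from 7.01 to 47.4 in KO (median 18.8). In NoSelect the WT mice 3 to 6 had 5.25, 5.18, 4.67 and 4.70 CPM and the KO mice 12.3, 22.3, 8.74 and 4.72. Again KO4 was highest and KO6 lowest, and the genotypes overlapped in each preparation through KO6. The log2 difference of S100a9 was 1.17 (SE 0.366, edgeR adjusted p = 0.112) in RiboZero, 1.31 (SE 0.369, adjusted p = 0.0704) in PolyA and 1.27 (SE 0.404, adjusted p = 0.172) in NoSelect. The proportion of the pair hardly differed between genotypes: the log2 ratio of S100a8 to S100a9 counts was -0.76 ± 0.185 in WT and -0.77 ± 0.143 in KO (SD, n = 6) in RiboZero, and -0.69 ± 0.0940 and -0.72 ± 0.0745 in PolyA.

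Without KO6, S100a8 and S100a9 were called in all 3 preparations. The edgeR adjusted p of S100a8 was then 0.0331 in RiboZero, 0.0255 in PolyA and 0.0468 in NoSelect, at log2 differences of 1.37, 1.46 and 1.70. That of S100a9 was 0.0341, 0.0176 and 0.0386, at 1.35, 1.51 and 1.55. Without KO4, the highest KO mouse, the log2 difference of S100a8 was 0.80, 0.92 and 0.84 in RiboZero, PolyA and NoSelect, and its adjusted p was 0.255, 0.162 and 0.314. S100a9 without KO4 was at 0.81, 0.96 and 0.78, with adjusted p of 0.225, 0.133 and 0.300. The share of all rows called without KO6 was 3.56%, 3.44% and 2.73%.

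Of the granule proteins, Mmp9, a gelatinase of tertiary granules that cuts matrix proteins, rose in RiboZero. Its WT libraries ran from 5.01 to 8.39 CPM (median 6.56) and its KO libraries from 7.88 to 18.1 (median 11.6). In PolyA it ran from 5.35 to 7.79 CPM in WT (median 5.97) and from 6.48 to 14.3 in KO (median 9.34). The WT mice 3 to 6 had 7.13, 6.80, 7.40 and 5.27 CPM in NoSelect and the KO mice 9.76, 14.7, 11.6 and 9.36. All 4 KO libraries lay above all 4 WT libraries in NoSelect, as 5.08% of all rows did, and the ranges overlapped in RiboZero and PolyA. Mmp9 had a log2 difference of 0.86 (SE 0.199, edgeR adjusted p = 0.0324) in RiboZero, 0.56 (SE 0.195, adjusted p = 0.140) in PolyA and 0.77 (SE 0.165, adjusted p = 0.0551) in NoSelect. The RiboZero call ended when WT2, WT3, WT4, WT5, WT6, KO4 or KO5 was left out, with adjusted p from 0.0541 to 0.0814, and held without WT1, KO1, KO2, KO3 or KO6. It also ended with mice 3 to 6 alone (0.0588) and after thinning all libraries to the smallest total (0.0667). KO1 was the highest KO mouse in RiboZero and PolyA and KO4 in NoSelect. Without KO6 the adjusted p was 0.0171 in RiboZero, 0.0718 in PolyA and 0.0445 in NoSelect.

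Ngp and Camp, proteins of secondary granules made by immature cells, were scarce and went with single mice rather than with genotype. Ngp in RiboZero ran from 0.0397 to 1.83 CPM in WT (median 0.428) and from 0.0406 to 0.960 in KO (median 0.0831). In PolyA it ran from 0.0419 to 1.91 CPM in WT and from 0.0392 to 0.618 in KO. In NoSelect the WT mice 3 to 6 had 2.21, 0.252, 0.470 and 0.410 CPM and the KO mice 0.200, 0.524, 0.777 and 0.122. WT3 was highest in every preparation, KO5 was the highest KO mouse, and the genotypes overlapped. Ngp had log2 differences of -1.05 (SE 0.853), -0.97 (SE 0.836) and -1.11 (SE 0.803) in RiboZero, PolyA and NoSelect, with edgeR adjusted p of 0.598, 0.584 and 0.563. Without WT3 it was -0.22, 0.09 and 0.05. Camp had 0 to 13 counts per library in RiboZero, 1 to 33 in PolyA and 0 to 19 in NoSelect, the highest in WT3 each time, so that no difference between genotypes was detectable at this depth.

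Among the receptors, Cxcr2, which guides neutrophils along CXC chemokines, had an unadjusted p under 0.05 in RiboZero and PolyA and was not called. In RiboZero it ran from 1.78 to 4.07 CPM in WT (median 2.53) and from 2.396 to 6.58 in KO (median 3.78). In PolyA it ran from 1.09 to 2.04 CPM in WT (median 1.55) and from 1.12 to 4.27 in KO (median 2.22). In NoSelect the WT mice 3 to 6 had 2.21, 2.95, 2.63 and 3.41 CPM and the KO mice 3.40, 5.87, 2.99 and 2.15. KO4 was highest in each preparation, followed by KO1 where it was measured, and 3 of 6 KO libraries in RiboZero exceeded every WT library. Cxcr2 had a log2 difference of 0.66 (SE 0.282, edgeR adjusted p = 0.262) in RiboZero, 0.73 (SE 0.326, adjusted p = 0.255) in PolyA and 0.36 (SE 0.294, adjusted p = 0.619) in NoSelect. The NoSelect value turned on single mice: it was 0.02 without KO4 and 0.55 without KO6 (adjusted p of 0.989 and 0.320).

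Csf3r, the receptor of G-CSF that drives neutrophil production and survival, differed less. In RiboZero it ran from 8.51 to 16.5 CPM in WT (median 11.6) and from 7.92 to 19.4 in KO (median 13.9), and in PolyA from 8.35 to 14.3 and from 6.94 to 18.4. Csf3r in NoSelect was 10.8, 13.7, 11.2 and 14.0 CPM in the WT mice 3 to 6 and in the KO mice 16.8, 18.1, 14.8 and 9.21. The KO range enclosed the WT range in each preparation. The log2 difference was 0.21 (95% interval -0.25 to 0.67), 0.19 (-0.31 to 0.69) and 0.24 (-0.21 to 0.70) in RiboZero, PolyA and NoSelect, with edgeR adjusted p of 0.689, 0.726 and 0.621. Single mice moved these values: without KO1 Csf3r stood at 0.07 in RiboZero and 0.04 in PolyA, and without KO6 at 0.33, 0.32 and 0.42 in RiboZero, PolyA and NoSelect (adjusted p of 0.424, 0.433 and 0.112). Without KO4 it was 0.09 in PolyA and 0.12 in NoSelect, and without WT1 0.33 in RiboZero and 0.30 in PolyA. Leaving out WT3 gave 0.13 in RiboZero. Within a library, the log2 ratio of Retnlg to Csf3r counts averaged -3.01 ± 0.276 in WT and -1.54 ± 0.585 in KO in PolyA (SD, n = 6). The ratio ran from -3.39 to -2.59 in WT and from -2.25 to -0.53 in KO in PolyA. The RiboZero ratio ran from -3.90 to -3.09 in WT and from -3.82 to -1.13 in KO, so that the genotypes overlapped there. The NoSelect ratio ran from -4.72 to -4.02 and from -3.22 to -1.40.

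Cxcr4, the receptor of Cxcl12 that holds neutrophils in marrow and rises on aged ones, was the steadiest member. In RiboZero it ran from 28.4 to 43.6 CPM in WT (median 31.6) and from 25.5 to 42.1 in KO (median 33.4), and in PolyA from 24.99 to 37.7 and from 23.7 to 40.1. Cxcr4 in NoSelect was 30.0, 28.3, 29.1 and 33.4 CPM in the WT mice 3 to 6 and in the KO mice 37.3, 29.6, 34.2 and 24.0. The genotypes overlapped throughout, and mouse 1 of each genotype was highest where it was measured. The 95% interval of the log2 difference was -0.24 to 0.29 in RiboZero, -0.24 to 0.33 in PolyA and -0.25 to 0.33 in NoSelect, around 0.02, 0.05 and 0.04, with edgeR adjusted p of 0.954, 0.893 and 0.917.

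Of the secreted signals, Retnlg, a resistin-like protein of mouse neutrophils, rose in PolyA and had the largest fold difference of the 9 tested members in each preparation. In PolyA its WT libraries ran from 1.201 to 1.38 CPM (median 1.33) and its KO libraries from 1.88 to 11.5 (median 4.11). In RiboZero it ran from 0.816 to 1.25 CPM in WT (median 0.853) and from 0.873 to 7.12 in KO (median 2.29). In NoSelect the WT mice 3 to 6 had 0.568, 0.828, 0.408 and 0.662 CPM and the KO mice 2.36, 6.84, 1.79 and 0.977. Every KO library lay above every WT library in PolyA and in NoSelect, as 1.82% and 5.08% of all rows did. In RiboZero, where 1.42% of all rows did so, 0 of the 9 members separated, and KO5 and KO6 lay within the WT range of Retnlg. The log2 difference of Retnlg was 1.87 (SE 0.381, edgeR adjusted p = 0.0152) in PolyA, a fold of 3.67, 1.62 (SE 0.442, adjusted p = 0.0654) in RiboZero and 2.27 (SE 0.591, adjusted p = 0.101) in NoSelect. The PolyA call held with each of the 12 libraries left out in turn, at adjusted p from 0.00686 to 0.0405, and was lost with mice 3 to 6 alone, at 0.0960. Without KO6 the adjusted p was 0.0376 in RiboZero, 0.00686 in PolyA and 0.0435 in NoSelect, and without KO5 it was 0.0312 in RiboZero. Without KO4 the log2 difference of Retnlg fell to 1.12 in RiboZero, 1.43 in PolyA and 1.45 in NoSelect, with adjusted p of 0.119, 0.0132 and 0.125.

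Il1b encodes interleukin-1 beta, an inflammatory cytokine. In RiboZero it ran from 2.38 to 4.70 CPM in WT (median 2.64) and from 2.11 to 6.91 in KO (median 2.89), and in PolyA from 1.86 to 4.11 and from 1.25 to 5.84. For Il1b in NoSelect, the WT mice 3 to 6 had 2.67, 2.34, 2.20 and 2.11 CPM and the KO mice 2.16, 3.56, 2.06 and 1.76. Mouse 1 of each genotype was highest in RiboZero and PolyA, and the genotypes overlapped in every preparation. The log2 difference of Il1b was 0.19 (95% interval -0.42 to 0.80), 0.02 (-0.70 to 0.74) and 0.03 (-0.48 to 0.53) in RiboZero, PolyA and NoSelect, with edgeR adjusted p of 0.810, 0.982 and 0.972. An antisense gene, Il1bos, overlaps Il1b over 1243 bases and held 377 counts over all libraries. Whether the counting used strand is not given in the sources used here.

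**Figure D2:**
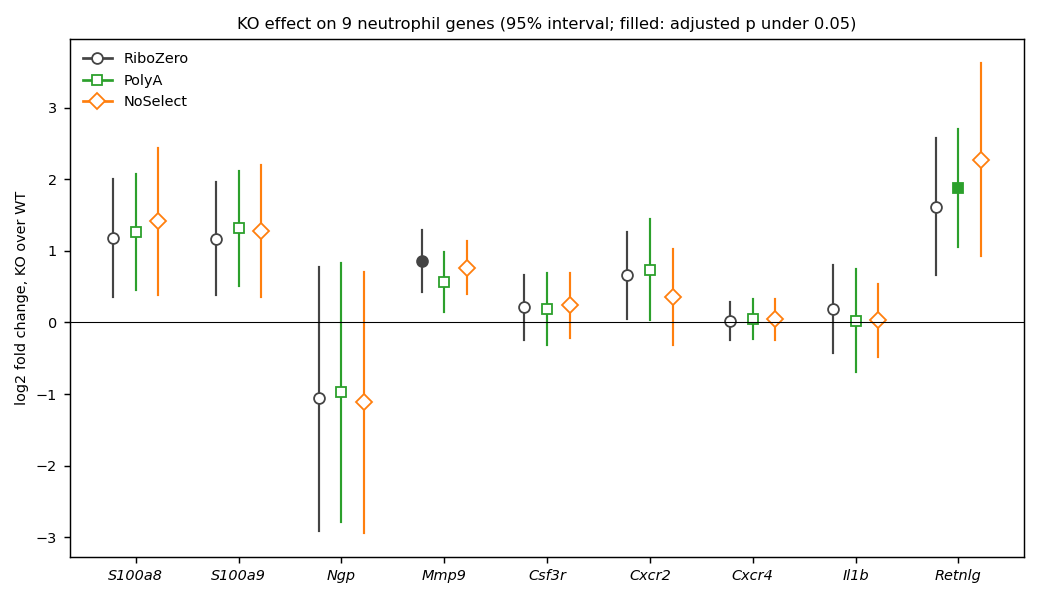
Log2 fold change of KO over WT (vertical axis) for the 9 members tested, in RiboZero (circles), PolyA (squares) and NoSelect (diamonds); lines are 95% intervals and filled symbols have an adjusted p under 0.05. Only Mmp9 in RiboZero and Retnlg in PolyA are filled, and the intervals of Cxcr4 are the narrowest around 0.

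The same lungs could be followed from preparation to preparation. After subtraction of the genotype mean, the log2 CPM of the same 12 mice in RiboZero and PolyA correlated at Pearson r from 0.888 (Il1b) to 0.985 (S100a9) over the 9 members, with permutation p adjusted over 27 relations from 0.000360 to 0.00626. Spearman's rho ran from 0.741 (Retnlg) to 0.972 (Cxcr4), with adjusted permutation p from 0.000540 to 0.0378. Without the 2 mice farthest from the median, r ran from 0.519 (Il1b) to 0.953 (S100a9). Between PolyA and NoSelect, over 8 mice, Il1b gave r = 0.323 and rho = 0.0238, with exact permutation p adjusted to 0.563 and 0.986, and r = -0.547 without the 2 farthest mice. Mmp9 gave r = 0.670 and rho = 0.476 there (exact permutation p adjusted to 0.126 and 0.289), and r = 0.156 without the 2 farthest mice. Between RiboZero and NoSelect, Retnlg gave r = 0.788 and rho = 0.429 (exact permutation p adjusted to 0.162 and 0.422), and 0.492 without the 2 farthest mice. Il1b gave r = 0.745 and rho = 0.619 in that pair (exact permutation p adjusted to 0.0566 and 0.127), and 0.626 without the 2 farthest mice. Without KO6, r between RiboZero and PolyA ran from 0.860 (Mmp9) to 0.977 (S100a9) over 11 mice, and Il1b between PolyA and NoSelect gave -0.274 over 7. These correlations compare aliquots of the same lungs, so they speak for the measurement and not for separate animals.

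The spread on the log2 scale was wider among KO than among WT mice for 8 of the 9 tested members in each preparation, and for 7 of 9 without KO6. The share of all rows with the wider spread in KO was not computed, so whether this is particular to the members was not tested. The members were measured in the same mice and several correlate, so they are not separate observations. The SD of log2 CPM of S100a8 was 0.313 in WT and 0.996 in KO in RiboZero, 0.351 and 0.953 in PolyA, and 0.205 and 1.01 in NoSelect. Without KO6 the KO value of S100a8 was 0.756, 0.746 and 0.757. For Retnlg in PolyA it was 0.0786 in WT and 0.954 in KO, or 0.869 without KO6. Ngp went the other way, with 1.46 in WT and 1.24 in KO in RiboZero. The within-group SD of S100a9 exceeded that of 98.4% of 2457 rows of like level in RiboZero and of 99.1% of 2657 in PolyA, and that of Cxcr4 exceeded 91.1% and 92.0%.

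**Figure D3:**
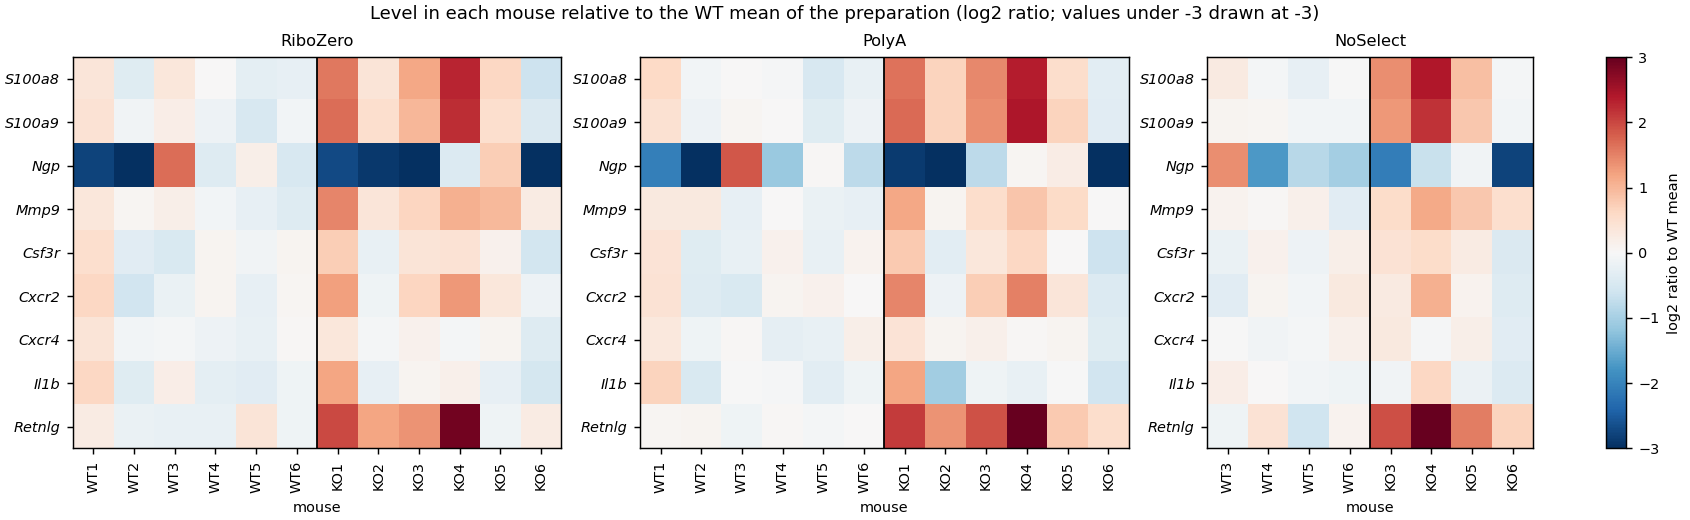
Log2 ratio of each library to the WT mean of its preparation (colour), for the 9 members tested (rows) and each mouse (columns); the vertical line parts WT from KO, and values under -3 are drawn at -3. KO4 and, where measured, KO1 are highest for S100a8, S100a9 and Retnlg, KO6 is lowest of the KO mice for S100a8 and S100a9, and Ngp is highest in WT3.

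Within genotypes, deviations of several members went together over the mice, while those of Ngp showed no such relation. Deviations of S100a8 and S100a9 correlated at r = 0.976 in RiboZero and 0.993 in PolyA (n = 12 mice, permutation p adjusted over 72 relations of 0.00180 and 0.00144, rho = 0.902 and 0.965 with adjusted permutation p of 0.0127 and 0.00576). Without the 2 farthest mice r was 0.916 and 0.982, and without KO6 it was 0.958 and 0.989. Csf3r and Cxcr2 gave r = 0.912 and 0.951 (adjusted permutation p of 0.00540 and 0.00240), rho = 0.881 and 0.902 (adjusted permutation p of 0.0127 each) and, without the 2 farthest mice, 0.873 and 0.903, and without KO6 0.895 and 0.926. These pairs were also related to each other: S100a8 and Cxcr2 gave r = 0.857 in RiboZero and 0.856 in PolyA (adjusted permutation p of 0.0122 and 0.0224). Their rho was 0.951 and 0.755 (adjusted permutation p of 0.00888 and 0.0733), and r without the 2 farthest mice was 0.832 and 0.692. Cxcr4 and Retnlg gave only r = 0.284 and 0.380 (adjusted permutation p of 0.571 and 0.355). Ngp had r between -0.154 and 0.279 with the other 8 members (between -0.403 and 0.128 without KO6), and the smallest of its adjusted permutation p was 0.505 for r and 0.267 for rho. All members of a library share its depth and scaling, and these relations were computed on the same 12 mice.

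By the likeness rule, the smaller of the r in RiboZero and in PolyA over 12 mice each, among 14166 rows, the gene outside the members most like S100a8 was Mx1, an interferon-induced gene (r = 0.936 and 0.874). Mx1 also ranked first for Retnlg (0.821 and 0.870). Csf3r was most like Cxcr2, then 9330175E14Rik (0.925 and 0.893) and Slfn4 (0.897 and 0.883). Mmp9 was most like Ttc7 (0.850 and 0.831), Ccl21a (0.926 and 0.829) and Cd101 (0.822 and 0.822). Cxcr4 was most like Cd180 (0.917 and 0.900), Cx3cr1 (0.916 and 0.899) and Id2 (0.887 and 0.927), of which Cx3cr1 is a marker of monocytes. Il1b was most like Ptafr (0.887 and 0.901), and Ngp most like Mid1 (0.816 and 0.817). These genes were picked as the highest of 14166 rows over 12 mice, where high r can arise by chance, and no test was run. Both preparations come from the same lungs, so the second r is not a separate observation.

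The preparation moved the measured level of some members. Over both genotypes, and calling an adjusted p under 0.05 with a log2 difference of at least 1 in size, edgeR called 0 of 9 between PolyA and NoSelect, where 25.1% of all rows were called. It called 0 of 9 between PolyA and RiboZero, against 23.6% of all rows, and 0 of 9 between RiboZero and NoSelect, against 4.3%. Below that size, S100a8, S100a9 and Retnlg were higher in PolyA than in NoSelect by 0.95, 0.92 and 0.92 on the log2 scale (adjusted p of 0.00867, 0.00806 and 0.0207), and Cxcr2 was lower by 0.65 (log2 difference -0.65, adjusted p = 0.0186). Cxcr2 was also lower in PolyA than in RiboZero, at -0.77 (adjusted p = 0.00265). With mouse as a block, which pairs libraries of one lung, 6, 4 and 8 of 10, 9 and 9 members tested had an adjusted p under 0.05 between PolyA and NoSelect, RiboZero and NoSelect, and PolyA and RiboZero, and 0 reached the size asked for. The share of all rows passing with the block was not taken, so these counts are not read as particular to the members. Without the block, 4, 1 and 2 of 9 members had an unadjusted p under 0.05 by edgeR in these comparisons. Of all rows, 80.1%, 51.2% and 82.1% did, so such differences were not particular to the members. Values of one preparation are therefore not levels of another. The KO effect itself was compared between preparations by an interaction term. It was called for 0 of 9 members by edgeR and by DESeq2 in each of the 3 pairs, 0 of 9 had an unadjusted p under 0.05, and 0% of all rows were called. Of all rows, 2.24%, 1.39% and 1.82% had an unadjusted p under 0.05 between PolyA and NoSelect, RiboZero and NoSelect, and PolyA and RiboZero. With mouse as a block, which takes out the difference between lungs, edgeR again called 0 members, and 2 had an unadjusted p under 0.05. The share of all rows at that mark was not taken for the blocked interaction, so these 2 have no background beside them. Mmp9 had a smaller KO effect in PolyA than in RiboZero, by a log2 difference of -0.27 (SE 0.0957, unadjusted p = 0.0124, adjusted p = 0.888). Cxcr2 had a larger one in RiboZero than in NoSelect, by 0.33 (SE 0.128, unadjusted p = 0.0395, adjusted p = 1). For Retnlg the difference in KO effect between PolyA and RiboZero was 0.28 (SE 0.598) without the block and 0.32 (SE 0.173) with it. Between RiboZero and NoSelect it was -0.66 (SE 0.758) without the block and -0.74 (SE 0.364, edgeR unadjusted p = 0.0681) with it. Between PolyA and NoSelect it was -0.42 (SE 0.703) and -0.27 (SE 0.227).

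**Figure D4:**
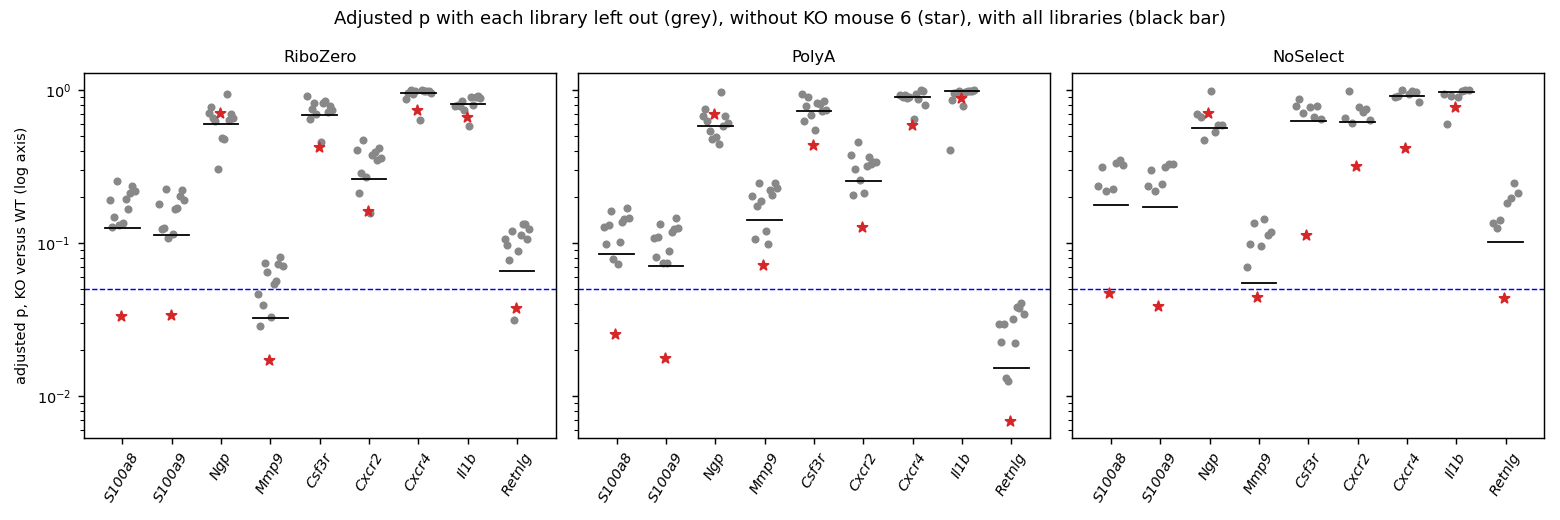
Adjusted p of KO versus WT (log axis) with each library left out in turn (grey points), without KO6 (stars) and with all libraries (black bars); the dashed line is 0.05. Leaving out KO6 puts S100a8, S100a9 and Retnlg below the line in each panel.

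Of 40 other genes in 5 lists, of neutrophil genes and of signals that act on neutrophils, the chemoattractants held the largest rises. Cxcl5, an epithelial ligand of Cxcr2, averaged 6.14 ± 2.98 CPM in WT and 31.8 ± 25.02 in KO in RiboZero, and 8.87 ± 3.89 and 50.3 ± 31.2 in PolyA (SD, n = 6). Its KO libraries lay above all WT libraries in RiboZero, PolyA and NoSelect, from 11.6 against 10.2, 23.9 against 13.9 and 11.95 against 11.7 CPM. Of all rows, 1.42%, 1.82% and 5.08% separated in that way. The log2 difference of Cxcl5 was 2.38 in RiboZero and 2.48 in PolyA (edgeR adjusted p of 0.0162 and 0.00499), and 1.63 in NoSelect (adjusted p = 0.136). Cxcl3, another ligand of Cxcr2, rose in PolyA by 1.99 (adjusted p = 0.00165), from 0.190 ± 0.0634 to 0.775 ± 0.250 CPM. In NoSelect the log2 difference of Cxcl3 was 1.14 (edgeR adjusted p = 0.216), without a call. The calls of Cxcl5 and Cxcl3 held with each library left out in turn, and without KO6 the adjusted p of Cxcl5 was 0.0185 in RiboZero and 0.00891 in PolyA. Over all 21 alternatives run, the RiboZero call of Cxcl5 held in 19, with an adjusted p of up to 0.101. Cxcl1, also a ligand of the receptor, had a log2 difference of -0.81 in PolyA (adjusted p = 0.0645) and was not called. Of the 9 genes in that list, 1 of 5 tested was called higher in RiboZero, 2 of 7 in PolyA, and 0 of 6 in NoSelect, where 4 had an unadjusted p under 0.05 and DESeq2 called 1. The share of all rows called by edgeR in either direction was 3.46%, 4.03% and 2.17% in RiboZero, PolyA and NoSelect.

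Of other neutrophil surface receptors, many of them shared with other myeloid cells, edgeR called 0 higher in any preparation. Itgam, the integrin CD11b of neutrophils, monocytes and macrophages, fell in PolyA from 5.69 ± 1.00 to 2.85 ± 0.596 CPM, a log2 difference of -1.03 (edgeR adjusted p = 0.00392). In RiboZero and NoSelect it was -0.33 and -0.31 (adjusted p of 0.152 and 0.324), and the interaction between PolyA and RiboZero had an unadjusted p of 0.00280 and an adjusted p of 1.00. Ltb4r1, a leukotriene B4 receptor, fell in PolyA by 0.75 on the log2 scale (adjusted p = 0.00485). In RiboZero and NoSelect its log2 difference was -0.51 and -0.18 (edgeR adjusted p of 0.118 and 0.779). The PolyA calls of Itgam and Ltb4r1 held with each library left out in turn. Over all 21 alternatives run, that of Itgam held in 21 and that of Ltb4r1 in 19. Of 13 such receptors, 2 of 11 tested in PolyA were called, both lower, beside 4.03% of all rows. In RiboZero and NoSelect edgeR called 0 of 11 and 0 of 12, where 2 and 3 had an unadjusted p under 0.05 and DESeq2 called 0. Of 7 secondary and tertiary granule genes all were tested and 0 were called in any preparation by edgeR, with 2, 1 and 2 at an unadjusted p under 0.05, and DESeq2 called 1, in NoSelect. Ltf, lactoferrin, which airway glands also make, stood at 1.01, 0.99 and 0.62 (adjusted p of 0.201, 0.155 and 0.590). Of 5 primary granule genes only Prtn3 in PolyA could be tested, and it was called at -1.20 (adjusted p = 0.0489). Of 6 granulocyte transcription factors, Cebpa in PolyA was called, at -0.22 (adjusted p = 0.0454). The calls of Prtn3 and Cebpa each ended with 11 of the 12 libraries left out singly.

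**Figure D5:**
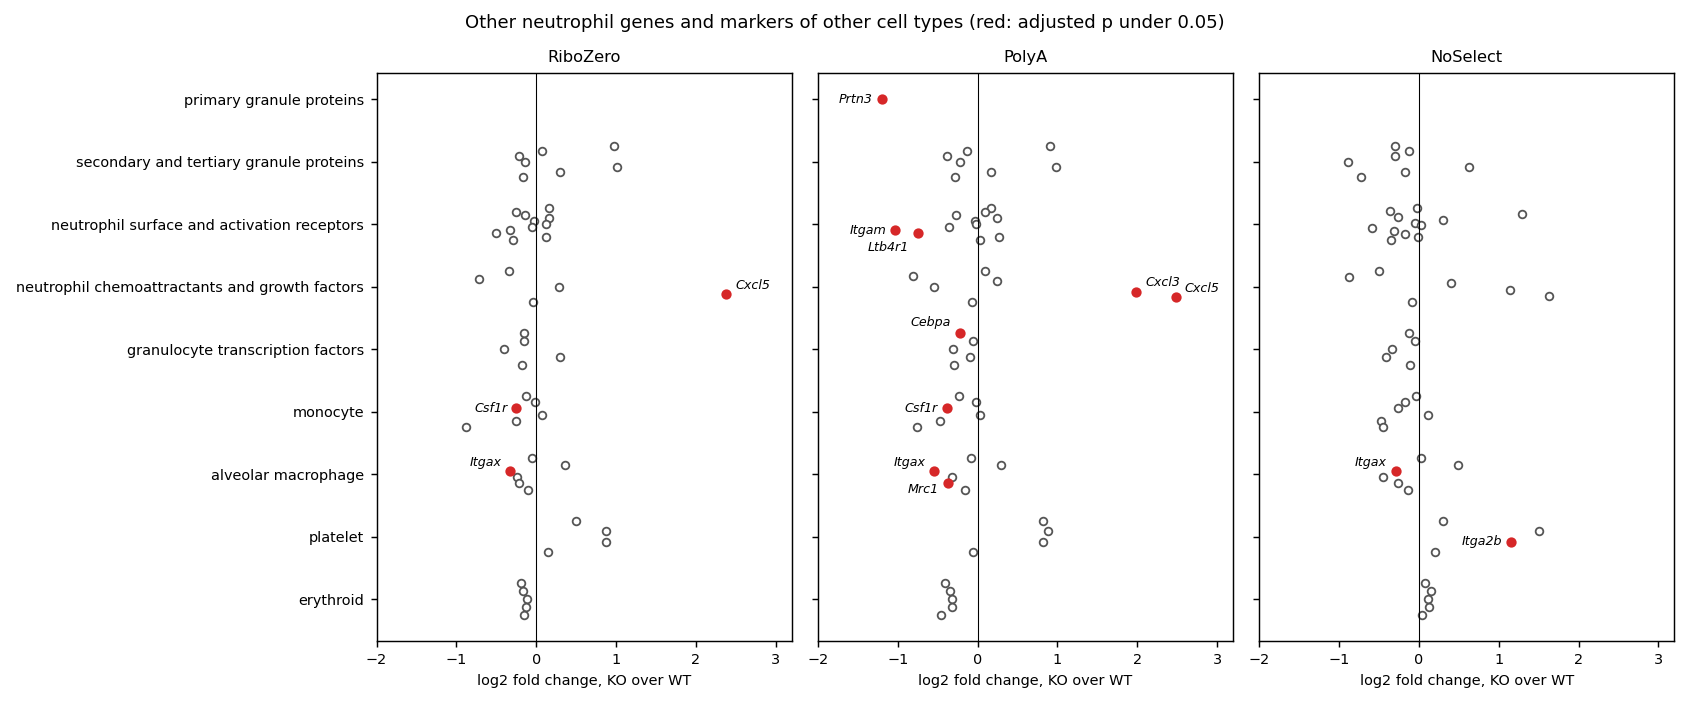
Log2 fold change of KO over WT (horizontal axis) for other neutrophil genes, signals that act on neutrophils and markers of 4 other cell types (rows), by preparation. Each point is a tested gene, and red named points have an adjusted p under 0.05. Cxcl5 and Cxcl3 lie far to the right, and the monocyte and macrophage markers called lie to the left of 0.

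Markers of other cell types moved too, beside 3.46%, 4.03% and 2.17% of all rows called in RiboZero, PolyA and NoSelect. Of 6 alveolar macrophage markers, Itgax was called lower in RiboZero, PolyA and NoSelect, at -0.33, -0.54 and -0.29 (edgeR adjusted p of 0.0221, 0.0174 and 0.0388, and 0.0261, 0.0420 and 0.0625 without KO6), and Mrc1 in PolyA at -0.38 (adjusted p = 0.0401). With each library left out in turn, the Itgax call held in 8 of 12, 12 of 12 and 1 of 8 fits, and that of Mrc1 in 2 of 12. The remaining macrophage markers were not called by edgeR, and the list did not move as one. Of its 6 genes, 1, 1 and 2 had a log2 difference above 0 in RiboZero, PolyA and NoSelect. The summed level of the macrophage markers ran from 145 to 195 CPM in WT and from 137 to 179 in KO in RiboZero. Of 6 monocyte markers, Csf1r was called lower in RiboZero and PolyA, at -0.25 and -0.39 (adjusted p of 0.0230 and 0.0254, held in 10 and 5 of 12 such fits), and their sum ran from 209 to 316 CPM in WT and from 162 to 291 in KO in RiboZero. Of 4 platelet markers, Itga2b was called higher in NoSelect, at 1.15 (adjusted p = 0.0113, held in 8 of 8). In RiboZero and PolyA it was at 0.87 and 0.81 (edgeR adjusted p of 0.102 and 0.149). The sum of the platelet markers ran from 6.94 to 13.5 CPM in WT and from 9.15 to 18.7 in KO in RiboZero. In NoSelect that sum ran from 6.59 to 9.13 CPM in WT and from 11.2 to 16.7 in KO. For 5 erythroid genes, a measure of blood left in the tissue, 0 of 5 were called in each preparation by edgeR and by DESeq2, 0 had an unadjusted p under 0.05, and the sum in RiboZero ran from 212 to 1478 CPM in WT and from 195 to 1137 in KO. Of 4 eosinophil markers 2 were tested and 0 called by edgeR or DESeq2, with 0 at an unadjusted p under 0.05, and Epx had 0 counts in every library. Of 6 lung epithelial markers 1 was called in each preparation: Ager was higher in RiboZero, at 0.23 (adjusted p = 0.0435, and 0.0745 without KO6), and Sftpd lower in PolyA and NoSelect, at -0.50 and -0.59 (adjusted p of 0.0380 and 0.0255). The Ager call held in 2 of 12 such fits and those of Sftpd in 3 of 12 and 3 of 8. Of 5 B cell and 5 T cell markers 0 were called by edgeR or DESeq2, with 1 T cell marker and 0 B cell markers at an unadjusted p under 0.05 in NoSelect. The part of these cells and of blood content in the differences of the neutrophil genes was not tested.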

How the data were processed

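Lung RNA of 12 mice had been made into 32 libraries. Estimated counts, a row per gene or transcript, came in 1 table deposited by the authors, and each column name fitted the title of 1 library. The submitters' processing notes name Salmon 1.4.0, UMI-tools 1.1.1 and GRCm38, without saying how they were applied. Rows were named from Ensembl identifiers, and positions and lengths come from GENCODE M21, whose use by the authors is not given in the sources used here. Estimated counts, of which 12.8% were not whole (tolerance 1e-06), were rounded. Tests ran in R 4.3.3 with edgeR 4.0.16 (TMM, filterByExpr, glmQLFit, glmQLFTest) and Benjamini-Hochberg adjustment over all rows, and edgeR log2 fold changes are given with their SE or 95% interval. The model within a preparation held only genotype, that between preparations also genotype as a covariate, and an interaction term compared KO effects. Correlations used log2 CPM (prior count 2) and two-sided permutations within genotypes, 100000 for 12 mice and all of them for 8, in Python 3.11.15 with scipy 1.17.1.

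The members and gene lists were chosen with earlier results of these data known. Named genes are the 10 members, up to 3 genes of each list by smallest adjusted p over the preparations, the 3 rows most like each member and the target. Other cell types were read from marker lists, and 6 liver and 6 lung markers checked the tissue label. Libraries of one mouse number were taken as the same animal, since titles number the mice and the deviations of such libraries correlated at 0.371 to 0.742 (28 pairs). Chi-square per degree of freedom over genes was 6.67 to 65.9 for the 72 pairs of replicates, so each library counts once. As a test on simulated data, 200 rows were shifted by 2 on the log2 scale, and 99%, 98% and 98% of them were recovered for KO versus WT in RiboZero, PolyA and NoSelect, over 16710, 17211 and 17124 rows. Except for Retnlg in NoSelect, the members' KO differences were smaller in size than this shift. The recovery therefore does not show how often differences of the members' size and spread would be called. Alternatives were DESeq2 1.42.0, other scaling, filters, thinning, blocks, fits of all libraries or of mice 3 to 6, and leaving out each library.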

Additional observations from a re-analysis of the deposited data

Results flagged for a closer look

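In each preparation and genotype, the highest and the lowest library of every member were set against the others of their group by Dixon's 95% criterion, under which about 1 in 20 groups stand out by chance. Of 60 groups, 11 did, in 4 members. WT3 stood out for Ngp with 1.83 CPM in RiboZero (others 0.0397 to 0.649), 1.91 in PolyA (others 0.0419 to 0.537) and 2.21 in NoSelect (others 0.252 to 0.470). The same mouse stood out for Camp with 0.485, 0.601 and 0.540 CPM in RiboZero, PolyA and NoSelect, where the other WT libraries reached at most 0.0919, 0.134 and 0.0720. Both genes belong to immature neutrophils. KO5 stood out for Camp in RiboZero with 0.218 CPM, from 5 counts (others at most 0.0775). For Il1b, KO1 stood out in RiboZero with 6.91 CPM (others 2.11 to 3.38) and in PolyA with 5.84 (others 1.25 to 2.54), and WT1 in PolyA with 4.11 (others 1.86 to 2.53). WT1 also stood out for S100a8 in PolyA with 8.31 CPM (others 3.96 to 5.55). The repeats of WT3 and KO1 across preparations are the same animals and not separate cases.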

How the results depend on the processing

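KO versus WT called 1 member in RiboZero, 1 in PolyA and 0 in NoSelect. DESeq2 called 3, 3 and 4 (976, 1355 and 878 of all rows, against 579, 694 and 372 by edgeR). A fit of all 32 libraries tested 10 members and called 2, 3 and 1, beside 891, 1564 and 340 of 18967 rows. Mice 3 to 6 alone gave 0 in RiboZero and 0 in PolyA (255 and 465 of all rows). Thinning gave 0 in RiboZero (479 of all rows), and a minimum of 10 counts in every library gave 1 in NoSelect (441 of all rows). Leaving out each library in turn gave 0 to 4, 1 to 3 and 0 to 4 members, and each highest count came without KO6. The count of 0 between PolyA and NoSelect became 1 without a filter on low counts and 0 to 2 with each mouse left out. The cause of these shifts was not tested, beyond the fewer samples in the smaller fits. No direction of S100a8, S100a9, Mmp9, Retnlg, Cxcr2 or Csf3r in KO versus WT reversed under any alternative run.

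Some differences changed sign, among them -0.97 (PolyA) and -1.11 (NoSelect) of Ngp, without WT3 alone. With mice 3 to 6 alone the log2 difference of Il1b, KO versus WT in PolyA, was -0.12, and thinning gave -0.028 in NoSelect. Mice 3 to 6 alone gave -0.038 for Cxcr4 and -0.032 for Il1b between PolyA and NoSelect, and -0.068 for Mmp9 between RiboZero and NoSelect. With each library left out, KO versus WT ran from -0.053 to 0.12 (RiboZero), -0.027 to 0.13 (PolyA) and -0.052 to 0.15 (NoSelect) for Cxcr4, from -0.15 to 0.35, -0.38 to 0.22 and -0.23 to 0.16 for Il1b, and from -1.39 to 0.088 (PolyA) and -1.62 to 0.054 (NoSelect) for Ngp. Between PolyA and NoSelect Cxcr4 ran from -0.017 to 0.083 and Il1b from -0.046 to 0.29. Between RiboZero and NoSelect Mmp9 ran from -0.049 to 0.081 and Cxcr2 from -0.00090 to 0.14, and between PolyA and RiboZero Ngp from -0.17 to 0.086.

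Equal numbers in WT and KO do not pair animals (r of their deviations from -0.151 to 0.261 over 16 pairs). With the number as a replicate block 1, 1 and 0 members were called, as without it. The calls over all rows fell from 579 to 372 in RiboZero and from 372 to 103 in NoSelect. Il1b became -0.10 in PolyA and -0.015 in NoSelect. With mouse as a block, pairing libraries of one lung, Cxcr4 became -0.040 and Il1b -0.020 between PolyA and NoSelect, and Mmp9 -0.075 between RiboZero and NoSelect. It changed no call of a member. The values without KO6 for spread and for correlations were chosen after seeing the data, and r of Il1b between PolyA and NoSelect changed sign there, to -0.274.

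Camp and Ngp are limited by depth, with at most 33 and 105 counts in a library, and 4 mice per genotype limit the NoSelect fits.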
